A study of Arabidopsis thaliana with 4 samples.

Results

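The genes described here are the NLR disease resistance protein genes of Arabidopsis thaliana, and the measurement is where RNA polymerase V (Pol V) peaks lay relative to them. Members were the nuclear protein-coding genes of the RefSeq TAIR10.1 annotation whose mRNA or coding sequence product text contains the words "disease resistance protein". This rule found 159 of 27444 protein-coding genes and used no measured value. The Pol V positions were 11478 peak summits, 1 per peak, which the authors called from a published Pol V antibody ChIP against a no-antibody ChIP. The genotype, tissue and age behind those published libraries are not given in the sources used here. The series itself holds 4 anti-FLAG ChIP-seq libraries from inflorescences, 1 each from untransformed Col0, DRD1-Flag, DMS3-Flag and RDM1-Flag plants, and their signals were not analysed here. With 1 peak list there are no replicates, so each share of genes has a 95% Wilson interval for counting error alone, and no test was made over genes.

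NLR proteins are intracellular immune receptors with a nucleotide-binding domain and leucine-rich repeats, and they recognise pathogen effectors directly or through the host proteins those effectors alter. In plants they carry either a TIR domain or a coiled coil at the amino terminus, and many of their genes sit in tandem arrays that arose by duplication. Pol V is a plant polymerase of RNA-directed DNA methylation, in which its non-coding transcripts act as scaffolds for small RNA-guided methylation, and its best known targets are transposons and other repeats. DRD1, DMS3 and RDM1 form the DDR complex, which acts with Pol V in this pathway.

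The product texts were checked against the encoded proteins. A P-loop motif, the nucleotide-binding signature of these receptors (G, any 4 residues, G, K, then S or T), was present in the translated longest coding sequence of 143 of the 159 members (89.9%), against 4.88% of all protein-coding genes. It was absent in 16 members. The letters GLPL, part of a motif further along the nucleotide-binding domain and searched without variants, were present in 48 members (30.2%), against 1.36% of all genes. By product text 91 members were TIR-NBS-LRR, 25 were CC-NBS-LRR, 25 were NBS-LRR or NB-ARC without a stated amino terminus and 14 were TIR-NBS or TIR. The product text of the other 4, AT3G20610, AT5G17950, AT5G35180 and AT5G47260, names no NLR domain, and that of AT5G35180 names a DUF1336 protein. The rule also left out 8 of 34 NLR genes with a described immune role, among them ZAR1 and ADR1-L1, because their product text is worded differently.

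The sequences under 6 of these summits are shown first because the results turn on where they lie. They are the strongest summit of the family, the strongest summit shared by a divergent pair, the strongest summit in a coding exon, an intronic summit with a high score, and the outermost summits of RPP7, the gene with the most summits. Each is 101 bases of the plus strand of TAIR10.1, 5′ to 3′, and capitals mark the 11 central bases around the summit. The positions are chr5:16033565-16033665 for AT5G40060, chr5:19189290-19189390 for the pair AT5G47250 and AT5G47260, chr2:5925345-5925445 for AT2G14080, chr4:10653031-10653131 for AT4G19530, and chr1:21746150-21746250 and chr1:21758399-21758499 for RPP7.
AT5G40060, 826 bp upstream: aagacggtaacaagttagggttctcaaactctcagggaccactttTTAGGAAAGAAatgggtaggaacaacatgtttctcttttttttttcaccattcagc
AT5G47250 and AT5G47260, between their starts: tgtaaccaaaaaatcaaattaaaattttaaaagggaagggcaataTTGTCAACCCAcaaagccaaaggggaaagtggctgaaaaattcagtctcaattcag
AT2G14080, coding exon: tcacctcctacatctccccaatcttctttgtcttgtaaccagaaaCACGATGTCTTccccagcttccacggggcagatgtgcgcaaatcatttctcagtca
AT4G19530, intron: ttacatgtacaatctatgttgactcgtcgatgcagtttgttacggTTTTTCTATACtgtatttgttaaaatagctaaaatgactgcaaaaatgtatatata
RPP7, 154 bp upstream: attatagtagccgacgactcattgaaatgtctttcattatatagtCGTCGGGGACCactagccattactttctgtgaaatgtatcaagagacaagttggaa
RPP7, intron: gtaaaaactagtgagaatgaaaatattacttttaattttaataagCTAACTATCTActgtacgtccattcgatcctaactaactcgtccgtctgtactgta

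A summit lay inside or within 1000 bp of 58 of the 159 members, or 36.5% (29.4 to 44.2), where 27.6% of all protein-coding genes had one. Members were longer than other genes, with a median of 4227 bp against 2078 bp, and had slightly fewer neighbours, with a median of 49 against 54 other protein-coding genes within 100 kb on each side. When all protein-coding genes were weighted to the members' numbers in 25 strata of gene length and gene density, their share was 35.1%. The members exceeded this standardised share by 1.39 percentage points (-5.69 to 9.11), an interval that spans 0.

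Inside the genes the members' share was above the standardised share, an excess that rested in part on 1 cluster and was largest on chromosome 4. A summit lay within 28 members, or 17.6% (12.5 to 24.3), against 8.03% of all protein-coding genes and 11.0% after standardisation, a difference of 6.58 points (1.44 to 13.2). The interval carries only the error of the members' share and treats them as independent, although tandem neighbours are not. Without the largest cluster, that of RPP4 and RPP5, 23 of 150 members had a summit inside (15.3%, 10.4 to 22.0), against a standardised 10.8%, and the difference of 4.54 points (-0.357 to 11.2) spans 0. Leaving out any other of the 39 clusters, or RPP7, kept the interval above 0. By chromosome, 10 of 30 members on chromosome 4 had a summit inside (33.3%, 19.2 to 51.2), against a standardised 12.3%. On each other chromosome the members' interval spanned the standardised share. Coding exons held a summit in 19 members, or 11.9% (7.79 to 17.9), against 5.13% of all genes and 5.84% standardised. Without the largest cluster it was 15 of 150 (10%, 6.15 to 15.8), against 5.74%. On chromosome 4 the coding exon share was 23.3% (11.8 to 40.9), against 6.43%, and on each other chromosome the interval spanned the standardised share. With strata of coding length in place of gene length the standardised share for coding exons was 6.60%. With strata of coding length and of the share of 50-mers that occur once in the genome it was 7.37%. For a summit inside, strata of gene length and these 50-mers gave 12.0%. Both values lie just under the members' intervals. Introns held a summit in 9 members (5.66%), where the background was 1.84% and the standardised share 4.09%, and untranslated exons in 5 members (3.14%), where they were 1.69% and 2.74%.

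Outside the genes the members did not exceed the standardised share beyond their interval. Within 1000 bp upstream of the start, 25 members (15.7%, 10.9 to 22.2) had a summit, against 14.5% of all genes and a standardised 20.1%. Within 1000 bp downstream of the end, 23 members (14.5%) had one, against 10.5% and 12.4%. Both standardised shares lie within the members' intervals, although the members' share was the lower upstream and the higher downstream.

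**Figure D1:**
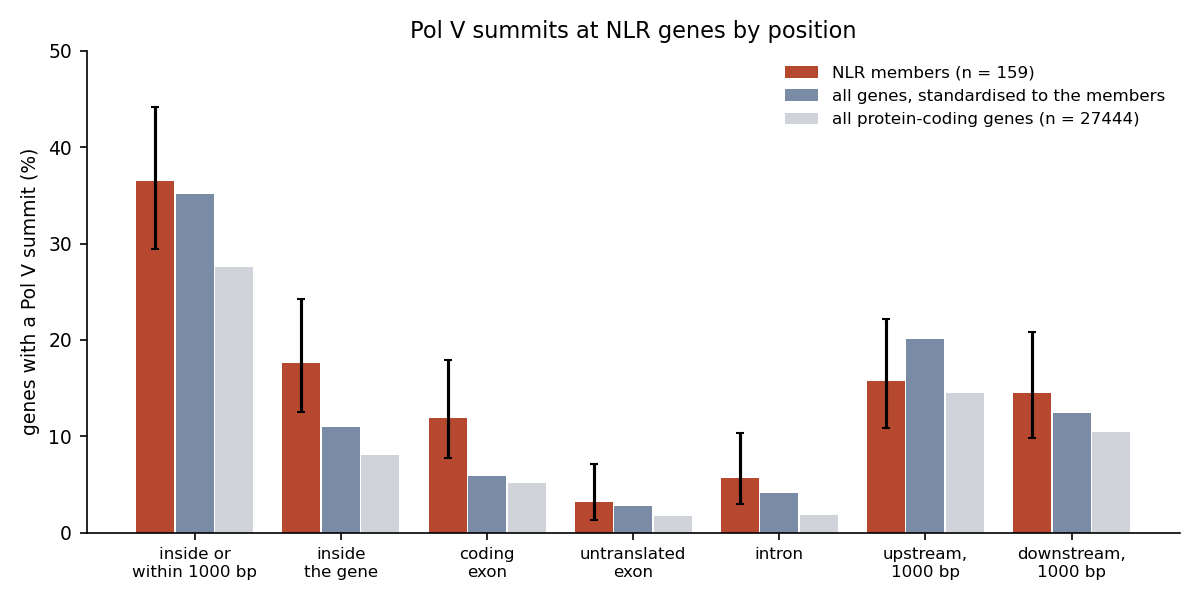
Percentage of genes with at least 1 Pol V summit at each position, for the 159 members (red, with 95% Wilson intervals), for all 27444 protein-coding genes weighted to the members' length and gene density (blue) and for all protein-coding genes unweighted (grey). The members' interval lies above the standardised share for the whole gene (12.5 against 11.0) and for coding exons (7.79 against 5.84), and spans it at the other 5 positions.

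The same pattern is seen along the gene. In each of 5 equal parts of the gene body the members had between 0.0581 and 0.0945 summits per kb, and the standardised density of all genes ran from 0.0312 to 0.0461. In the 500 bp just upstream of the start the members had 0.226 per kb and the standardised density was 0.200, whereas between 500 and 1000 bp upstream the members had 0.113 against 0.217. These rest on 18 and 9 summits. Per Mb of coding sequence there were 60.0 summits in members and 45.9 in all genes, and per Mb of gene 72.7 and 39.4. Without RPP7 the second rate fell to 64.3, and without the largest cluster the rates were 52.7 and 65.9.

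**Figure D2:**
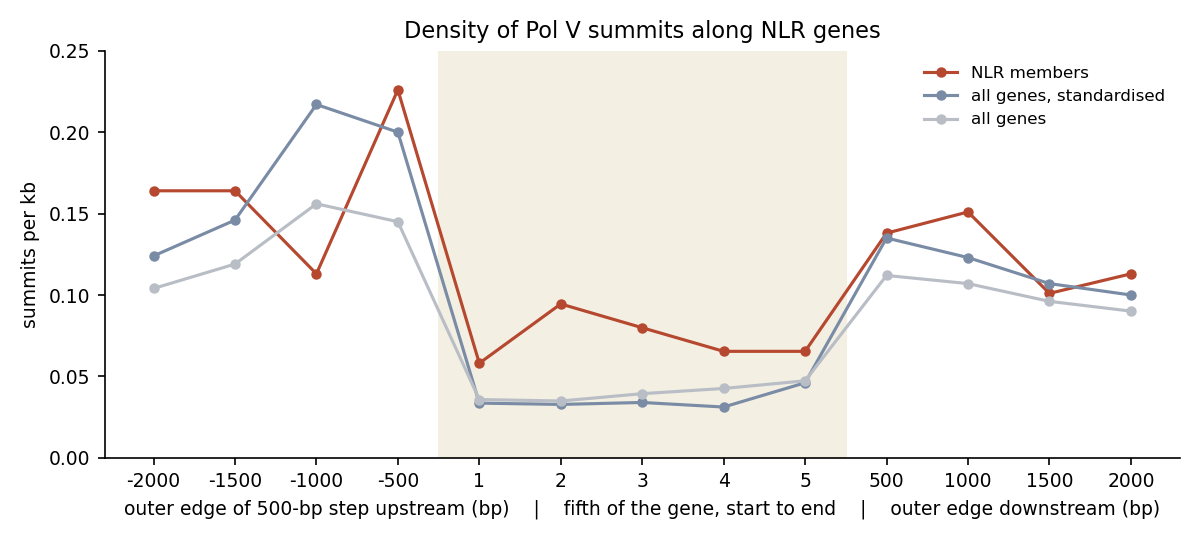
Pol V summits per kb in 500-bp steps upstream and downstream of the gene and in 5 equal parts of the gene body from start to end (shaded), for members (red), all protein-coding genes standardised to the members (blue) and all protein-coding genes (grey). The red line lies above both others across the body, from 0.0581 to 0.0945 per kb, and falls below them between 500 and 1000 bp upstream.

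In all there were 100 pairs of a member and a summit, made by 97 distinct summits, of which 3 lay near 2 members. One summit was counted for 37 of the 58 members, 11 had 2, 3 had 3, 6 had 4, and RPP7 had 8. Thus 10 members (6.29%, 3.45 to 11.2) had 3 or more summits, against 1.25% of all genes and 2.66% standardised. Of the 47 distinct summits that lay only outside members, 39 were in no annotated gene, 5 in another protein-coding gene, 2 in a pseudogene and 1 in a non-coding RNA gene. At the edge of the 1000 bp limit, the farthest summit counted lay 992 bp from AT3G14470, and the nearest not counted for a member without any lay 1097 bp from AT5G41540.

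Scores of the summits at members were low for the list. The score is the whole number the peak caller gave each peak, has no stated unit, and ran from 28 to 1615 with a median of 169. The 97 summits at members had a median of 97 (71 to 153, 95% order-statistic interval), and the 7592 summits at all protein-coding genes had a median of 176, a difference of -79 (-105 to -23). In coding exons the members' median was 56.5 (50 to 71) against 81 for all genes. It was 80 (70 to 233) against 186 downstream, and 66.5 (32 to 764) against 182.5 in untranslated exons, where there were 6 summits. Introns (150 against 147) and upstream regions (204 against 223) lay closer together. Of these positions, only in coding exons did the members' interval leave out the median of all genes. Inside genes lay 50 of the 97 summits at members and 2581 of the 7592 at all genes. The medians there were 66.5 (55 to 123) and 101, and outside genes 172 (80 to 284) and 202. The difference of -79 was not adjusted for position. Among summits in coding exons, 5 of 28 at members (17.9%) reached the list median, against 27.7% over all genes.

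Inside genes the difference from the standardised share, in percentage points, was larger for the lower scores, which were also the commoner inside all genes (5.30% against 3.28%). Summits under the list median lay inside 23 members (14.5%, 9.84 to 20.8), against a standardised 7.93%. Summits at or above it lay inside 10 members (6.29%, 3.45 to 11.2), against 4.44%, which the interval spans. With strata of coding length the standardised shares were 7.59% for the lower scores and 3.33% for the higher. The differences were then 6.87 and 2.96 points, and both standardised shares lay under the members' intervals, the second only just. Inside or within 1000 bp, 31 members (19.5%, 14.1 to 26.3) had a summit at or above the median score, against 16.9% of all genes and 21.9% standardised.

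**Figure D3:**
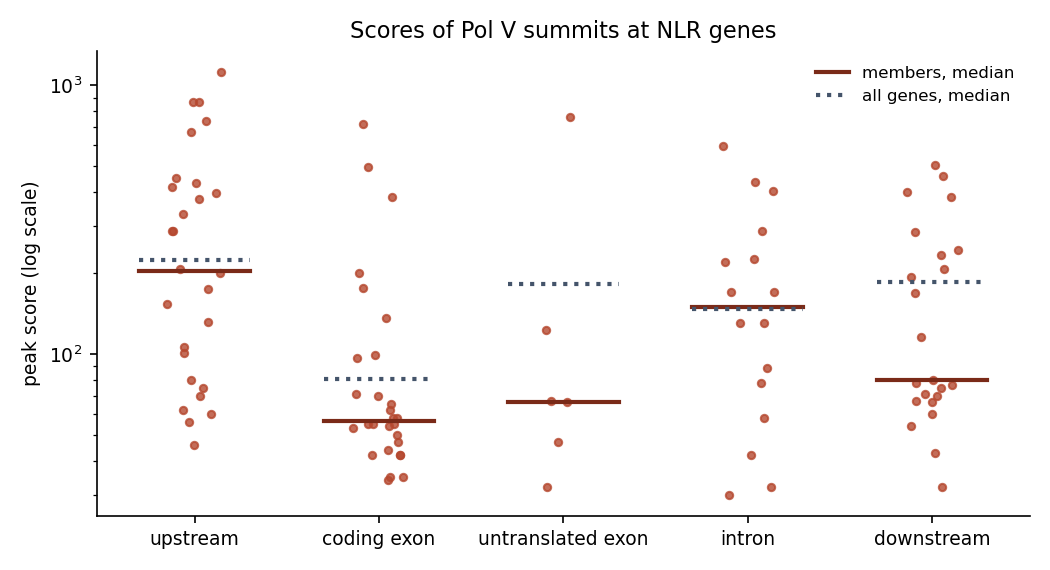
Score of each summit at a member (points, log scale, 1 point per pair of member and summit, spread sideways for legibility) by position, with the median of the distinct summits at members (solid line) and at all protein-coding genes (dotted line). In coding exons most points lie near the median of 56.5, with 3 at 383, 497 and 718, and in introns the 2 medians nearly coincide at 150 and 147.

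Of the 10 members with the highest scores, 5 had their strongest summit upstream. AT5G40060 (NBS-LRR or NB-ARC text) had the highest, with a score of 1121 at 826 bp upstream of its start, rank 85 in the list. The summit of score 869 lay between the divergent starts of AT5G47250 and AT5G47260, 455 bp from the former and 71 bp from the latter. AT5G36930 had 735 at 207 bp upstream and 284 downstream, and AT4G19520 had 669 at 239 bp upstream. The first sequence above, from AT5G40060, had 6 copies elsewhere in the genome and the summit of AT4G19520 had 26, where a copy means at least 80% identity over 100 bp or more, and none of these copies lay at a member.

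Of the other 5 members, 4 had their strongest summit within the gene and 1 downstream. RLM3, a TIR gene named for resistance to blackleg fungus, had 764 in an untranslated exon, 42 in a coding exon and 233 downstream. AT2G14080 had 718 in a coding exon, 276 bp from its start. AT4G19530 had 596 in an intron, and AT1G63870 had 497 and 383 in coding exons. AT5G35450 had 507 downstream and 331 upstream.

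RPP7, an NLR gene for resistance to downy mildew, had the most summits. It spans 19695 bp (chr1:21746354-21766048, plus strand), and its 8 summits had scores of 418, 287, 42, 32, 170, 89, 30 and 405 from start to end. The first lay 154 bp upstream and the other 7 in introns, 3 of them in an intron of 7384 bp and 4 in an intron of 4420 bp. The scores are highest at the outer ends of this run and lowest within it. An early RPP7 intron is known to hold a Copia retrotransposon, but no transposon annotation was used here. The last 3 summits had 4, 14 and 6 copies elsewhere in the genome, none at a member, and the other 5 had none.

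Members with 4 summits showed a different picture. In AT1G58390, a CC-NBS-LRR gene, all 4 lay in coding exons, with scores of 35, 42, 71 and 44. AT1G59780 had 436 in an intron, 176 and 35 in coding exons and 54 downstream. AT1G63750 had 136 in a coding exon, 67 and 66 in untranslated exons and 60 upstream, and AT4G09420 had 453 upstream, 50 and 34 in coding exons and 32 downstream. RPP4, for resistance to downy mildew, had 54 and 58 in coding exons, 130 in an intron and 70 downstream. AT4G19530 had 596 in an intron, 47 in a coding exon and 131 and 70 upstream. In these 6 genes the coding summits were all at or under 176, while 3 of the 6 carried a summit above 400 in an intron or upstream.

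Copies of the summit sequences divided by position. Of the 28 summits in members' coding exons, 15 had a copy elsewhere in the genome, all 15 had one inside or within 1000 bp of a member, and 13 had copies there alone. Of the 16 intronic summits 9 had a copy, 8 of them only away from members, and upstream it was 12 of 25, with 10 only away from members. Over all protein-coding genes 42.4% of coding exon summits and 42.8% of intronic summits had a copy. Among the 22 summits with a copy at a member, 8 had such a copy within 100 bp of another listed summit. For the coding exon summits this was 4 of 15, and 4 of their 64 copies at members. No copies were counted for windows of members without a summit. Whether the division by position is particular to summits therefore cannot be told.

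3 of these coding exon summits are shown beside their closest copy at another member, to let the reader see how much the copies differ. In the summit windows, on the plus strand at chr1:23709903-23710003, chr1:21692362-21692462 and chr4:9522345-9522445, capitals mark the 11 central bases. In the copies, at chr1:23705222-23705322, chr1:21697562-21697662 and chr4:9542287-9542387, capitals mark every base that differs from the summit window. The 3 were chosen after their values were seen. The window had an ungapped closest copy at a member for 9 coding exon summits. The gene at that copy had no listed summit inside or within 1000 bp for 7 of them, the 3 shown included. The other 2 copy genes were SNC1, with 2 summits, and AT1G63880. The only summit at AT1G63880 was the AT1G63870 summit of score 383 itself, 675 bp downstream of AT1G63880. Over all members, 101 of 159 had no summit inside or within 1000 bp.
AT1G63870, score 497: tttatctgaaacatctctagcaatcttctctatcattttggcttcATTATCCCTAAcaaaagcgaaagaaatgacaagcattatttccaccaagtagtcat
AT1G63860, its copy: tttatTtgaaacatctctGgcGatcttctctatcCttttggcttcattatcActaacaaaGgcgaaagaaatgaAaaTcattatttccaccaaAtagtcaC
AT1G58390, score 71: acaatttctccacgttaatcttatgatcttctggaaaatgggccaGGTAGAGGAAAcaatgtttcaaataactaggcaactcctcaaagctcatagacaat
AT1G58400, its copy: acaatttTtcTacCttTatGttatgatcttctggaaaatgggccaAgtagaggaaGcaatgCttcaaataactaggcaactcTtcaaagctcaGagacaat
AT4G16920, score 58: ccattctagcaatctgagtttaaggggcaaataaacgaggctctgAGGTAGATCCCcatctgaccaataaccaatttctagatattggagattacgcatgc
RPP5, its copy: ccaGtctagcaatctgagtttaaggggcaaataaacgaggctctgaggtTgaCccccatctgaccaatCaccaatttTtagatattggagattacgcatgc

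The copies matched at 91, 91 and 96 of 101 bases. Only uniquely mapping reads with at most 2 mismatches were kept for the peaks, so reads from sites that differ little or not at all from a copy could be lost. Its part in the absence of summits at the copies was not tested. By exact 50-mers, 92.3% of the positions in and around members occurred once in the genome on average, against 97.3% for all genes. 32 members were under 90% unique, and 10 of them had a summit, against 48 of the other 127. In the least unique quintile of genes (up to 99.0%), 30 of 63 members (47.6%) had a summit, where all genes had 45.5%. Among wholly unique genes it was 18 of 67 members (26.9%), where all genes had 20.2%. The 5 members under 50% unique had none, namely AT1G58807, AT1G58848, AT1G59124, AT1G59218 and RPP1, and at these genes a missing summit cannot be told apart from missing reads.

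Clustered and single members were compared next. A member was called clustered when another lay at most 200 kb away with at most 8 other protein-coding genes between them, which gave 115 members in 39 clusters and 44 single members. A summit lay in or within 1000 bp of 41 clustered members (35.7%, 27.5 to 44.7) and 17 single members (38.6%, 25.7 to 53.4), a difference of -2.98 points (-19.8 to 12.8, Newcombe). Inside the gene it was 21 (18.3%) and 7 (15.9%), a difference of 2.35 points (-12.4 to 13.7). Both intervals span 0 and allow a difference of more than 10 points in either direction. The standardised shares for clustered and single members were 35.6% and 33.7% inside or within 1000 bp, and 11.2% and 10.5% inside the gene. Summits at clustered members had a median score of 78 and those at single members 169.5. These medians were not adjusted for position. Inside the gene lay 41 of 73 summits at clustered members and 9 of 24 at single members, and scores were lower inside members than outside.

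Summits were also counted by cluster. A summit lay at 1 or more members in 24 of the 39 clusters (61.5%, 45.9 to 75.1). Every member had one in 3 clusters, and 15 clusters had none at a member. Counting each cluster once, a mean of 33.3% of its members had a summit. Among the 23 pairs of genes, 12 had no member with a summit, 9 had 1 and 2 had both. No such count was made for groups of neighbouring genes over all protein-coding genes. Whether this partial coverage is particular to members therefore cannot be told.

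The cluster with most members, on chromosome 4 and 83.1 kb long, holds RPP4, SNC1, RPP5 and RLM3. There 6 of 9 members had 12 summits, 9 of them with scores of 130 or less. RPP5, with 56.8% unique 50-mers, had none. SNC1, known from an autoimmune mutant, had 58 in an intron and 56 at 48 bp upstream. The cluster around RPP7, 142.4 kb long, also had 12 summits at members, but at only 2 of 8 members, RPP7 and AT1G58390. Its whole span held 22 listed summits, and its members averaged 48.3% unique 50-mers. In the cluster of RPS4 and RRS1, a divergent receptor pair, 4 of 7 members had 5 summits, with 123 in an untranslated exon of RRS1 and none at RPS4. In the cluster from AT1G72840 to AT1G72950, 1 of 6 members had a summit, AT1G72890 with 377 upstream. The cluster of RPP2B, chosen after its values were seen, had summits at 3 of 3 members and 7 summits in all, including 432 at 70 bp upstream of RPP2B. The 5 members of the cluster of RPS6, also chosen after its values were seen, had none. They averaged 77.0% unique 50-mers, with a lowest value of 50.7%.

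**Figure D4:**
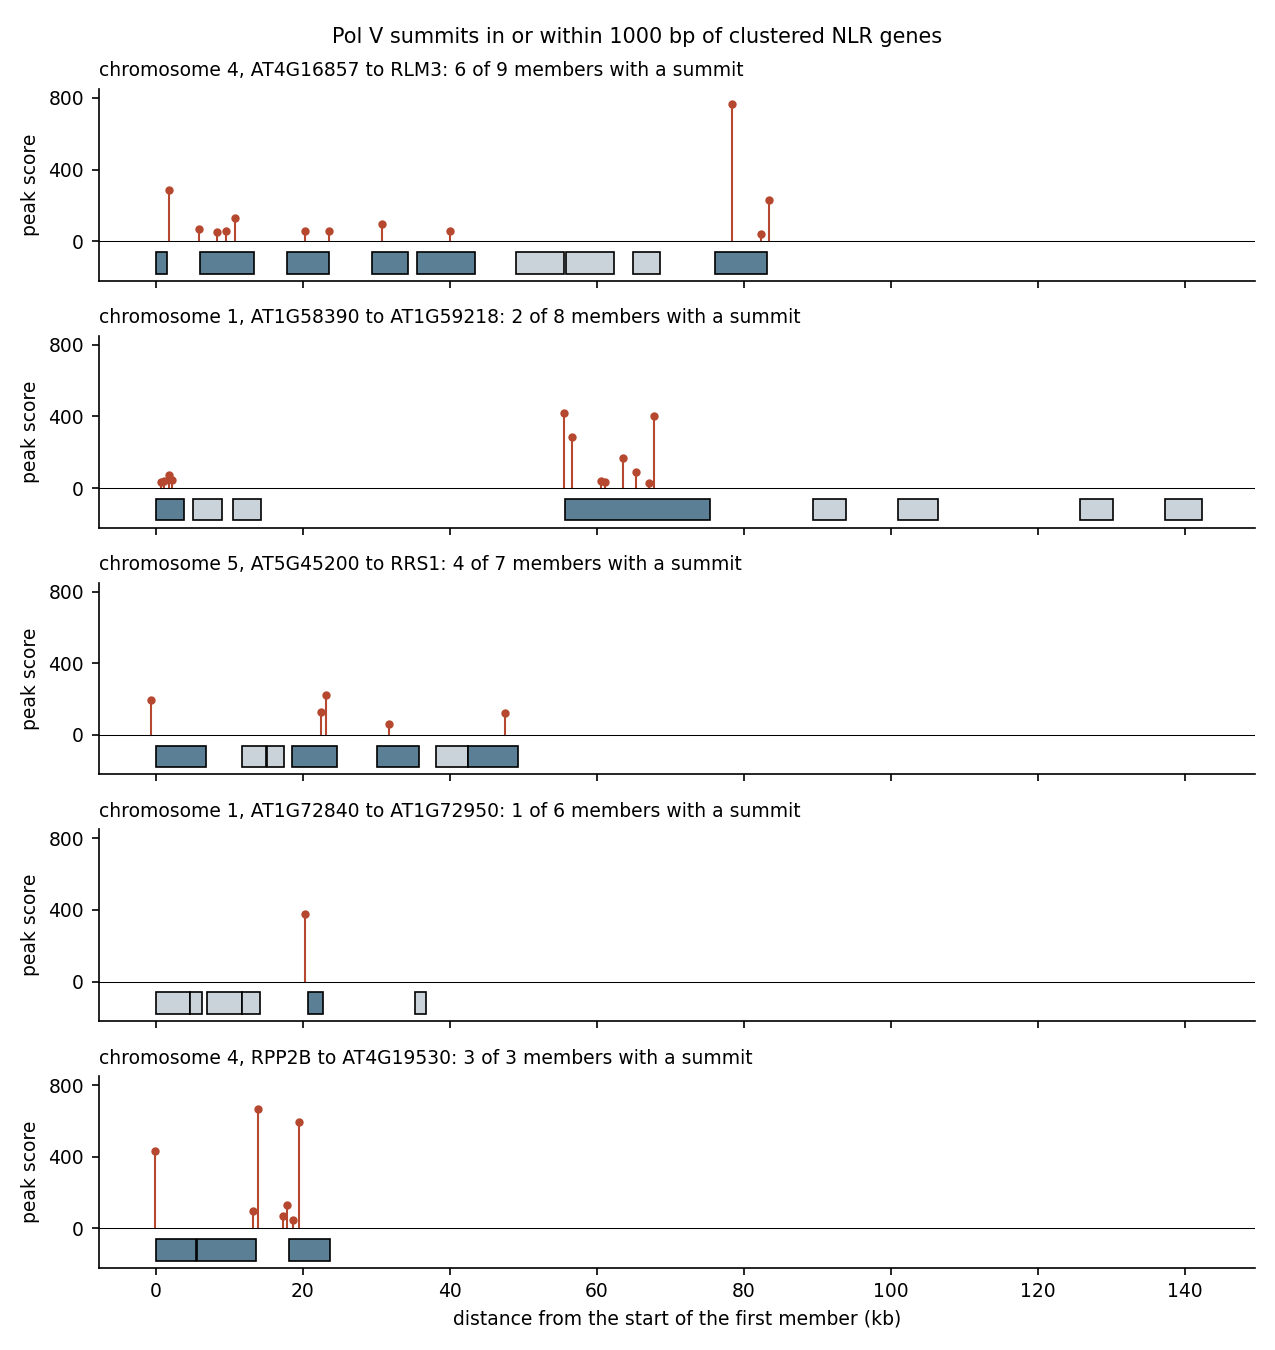
Members of 5 clusters as outlined boxes along the chromosome (dark, with a summit inside or within 1000 bp; pale, without), with the summits at members as stems whose height is the score; distances are in kb from the start of the first member. Scores of 130 or less prevail in the top row, where 1 stem reaches 764, and the second row has 8 stems at RPP7 and 4 at AT1G58390.

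By product class, a summit lay in or within 1000 bp of 35 of 91 TIR-NBS-LRR members (38.5%), 5 of 25 CC-NBS-LRR members (20%, 8.86 to 39.1), 11 of 25 NBS-LRR or NB-ARC members (44%) and 5 of 14 TIR-NBS or TIR members (35.7%). The standardised shares of all protein-coding genes were 37.6%, 36.5%, 30.5% and 25.7% in the same order, each within the interval of the members' share. TIR-NBS-LRR members differed from all other members by 4.64 points (-10.4 to 19.0) and from CC-NBS-LRR members by 18.5 points (-2.83 to 33.6), and both intervals span 0. The CC-NBS-LRR members also had the lowest mean of unique 50-mers, 79.6%, and its part in their share was not tested.

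**Figure D5:**
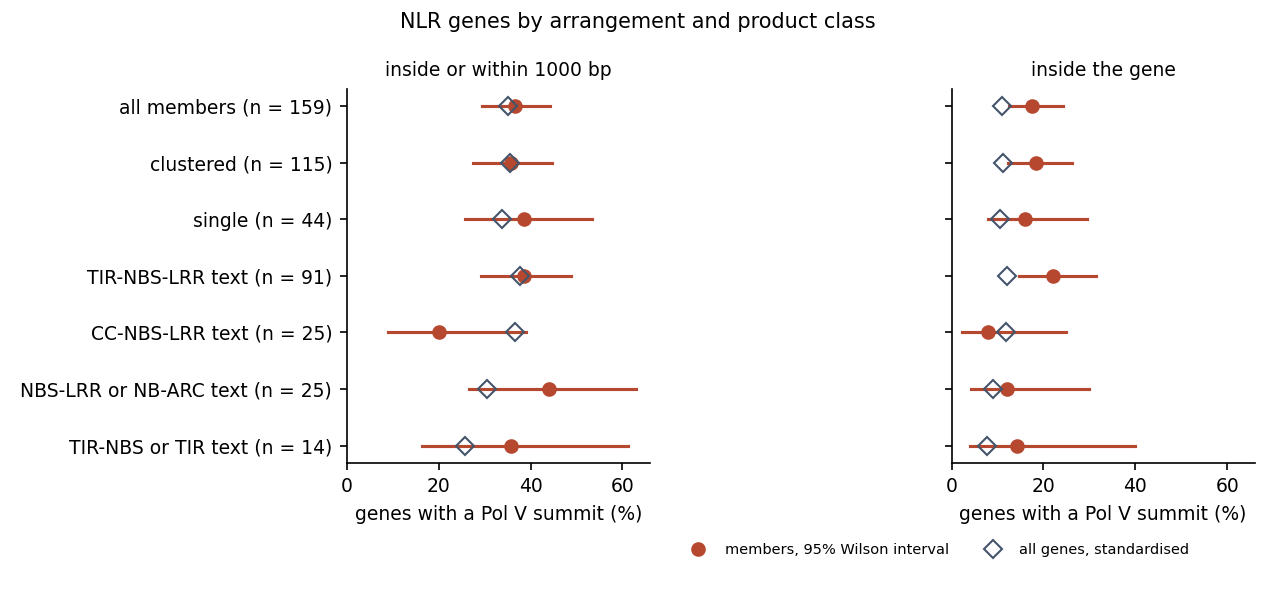
Percentage of members with a Pol V summit inside or within 1000 bp (left) and inside the gene (right), for all members, by arrangement and by product class (points, with 95% Wilson intervals), beside the standardised share of all protein-coding genes (diamonds). The intervals of clustered and single members overlap in both panels, and CC-NBS-LRR members have the lowest points, 20% and 8%.

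The share of members with a summit varied with their surroundings. Among members in the least gene-dense quintile, 29 of 50 (58%) had a summit, where all genes had 49.0%, and in the 2 densest quintiles 2 of 18 (11.1%) and 2 of 13 (15.4%) had one, where all genes had 21.0% and 16.0%. A pseudogene lay within 1000 bp of 20 members (12.6%), against 6.14% of all protein-coding genes. Of these 20 members, 15 (75%, 53.1 to 88.8) had a summit, against 43 of the other 139 (30.9%, 23.9 to 39.0). The same contrast over all protein-coding genes was 45.7% against 26.4%. By chromosome, 18 of 51, 3 of 4, 4 of 17, 14 of 30 and 19 of 57 members had a summit on chromosomes 1 to 5. The standardised shares were 34.2%, 49.3%, 30.5%, 39.9% and 33.7%, each within the interval of the members' share.

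Among the 26 members with a described immune role, 10 (38.5%) had a summit, against 36.5% of all members and 27.6% of all protein-coding genes. They were RPP7, RPP4, RLM3, RPP2B, SNC1, RRS1, WRR4A with 78 in an intron, LAZ5 with 200 in a coding exon and 101 upstream, RAC1 with 169 downstream and ADR1, a helper NLR, with 67 downstream. The other 16 had none, among them RPM1 and RPS2, which guard a host protein targeted by bacterial effectors, the helpers NRG1.1 and NRG1.2, and RPP8 and RPP13. Of the 8 described NLR genes outside the rule, 5 had a summit, the strongest of score 671 at ADR1-L1.

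Other genes of NLR signalling were counted as a group, and 8 of 19 (42.1%) had a summit inside or within 1000 bp, beside the 27.6% found over all protein-coding genes. PAD4, a lipase-like partner of EDS1, had 65 and EDM2, a chromatin factor known to control RPP7 expression, had 210, both in coding exons. NDR1, needed by many coiled-coil receptors, had 801 and NPR1, the salicylic acid receptor, had 343, both upstream. CPR1, an F-box protein that targets SNC1, had 930 and RIN4, guarded by RPM1 and RPS2, had 404, both downstream. EDS1, SAG101, SGT1B and RAR1 were among the 11 without a summit.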

How the data were processed

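The data are 1 deposited list of Pol V peak summits. The authors aligned published Pol V and no-antibody ChIP reads to TAIR10 with Bowtie 1.0.0, kept unique reads with at most 2 mismatches, removed duplicates with SAMtools 0.1.19, ran MACS2 for peak calling (q-value 0.05) and retained peaks over 2-fold. The deposited score, a whole number whose unit is not stated, was compared only within the list. Whether replicates were pooled is not given in the sources used here, the depth is unknown, and the list keeps no peak width. 1 blank record was left out, and 0 columns of per-sample values were unused.

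Summit positions (1-based) were placed on RefSeq TAIR10.1 genes, and all lie within its 5 nuclear chromosomes. A summit counted for every gene within 1000 bp. Standardised shares weight all protein-coding genes, members included, by the members' counts in 25 strata (quintiles of gene length and of genes within 100 kb). In place of a matched gene list this keeps every gene. It was tested on simulated outcomes, and counts of genes with a summit were checked with bedtools 2.31.1 at 4 distances (0 genes differed). Copies came from BLAST+ 2.17.0 with windows of 201 bp. Scripts ran under Python 3.11.15 with SciPy 1.17.1 and NumPy 2.4.6, and figures were drawn in matplotlib 3.10.9.

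Named genes were NLR genes with a described immune role, the 10 members with the highest scores, the 5 with most summits, the 4 clusters with most members and the 2 with most summits, and a list of NLR signalling genes, with ties to the lower locus. The members and lists were chosen with earlier results of these data known. Alternatives covered the distance, score, merging of summits, P-loop, unique 50-mers, strata and cluster definition.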

Additional observations from a re-analysis of the deposited data

How the results depend on the processing

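Of 49 alternatives, 45 left their result within its main interval. The other 4 follow from their own construction, counting fewer or more summits. The share of members with a summit was 27.7% within 500 bp, 49.1% within 2000 bp and 19.5% with scores at or above the median, and the share with a summit inside was 6.29% with those scores. The difference from the standardised share ranged from -2.40 points, at scores at or above the median, to 6.79 points, with strata of length and space to neighbours, and its sign also turned when summits were merged (-0.161). Clustered minus single members ranged from -8.26, for adjacent genes, to 3.70, within 500 bp. TIR-NBS-LRR minus other classes ranged from -1.90, for genes with at least 90% unique 50-mers, to 13.8, within 2000 bp. The score difference ranged from -96 to -66. The share with a summit inside was 15.3% without the largest cluster, and its difference from the standardised share then spanned 0 (4.54 points, -0.357 to 11.2); of the 39 clusters left out in turn this was the only one. All values without RPP7 or a cluster were chosen after seeing the data. No paired analysis was possible because the list comes from 1 peak call without replicates.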

Other observations

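Members with a summit had a median of 3818.5 bp of space to their neighbours, and those without had 1152 bp. Summits in members' coding exons had a mean GC content of 39.3% within 250 bp on each side, and those upstream had 30.6%, beside 40.7% and 30.9% over all protein-coding genes. Just upstream of the start, within 500 bp, clustered members had 0.278 summits per kb and single members 0.0909, from 16 and 2 summits, and between 500 and 1000 bp downstream the values were 0.104 and 0.273, from 6 summits each. These values were singled out after they were seen, and no test was made of them.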
